A study of Homo sapiens with 2 samples.

Results

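The zinc finger genes of chromosome 19 were taken as the protein-coding genes of GENCODE release 44 on this chromosome whose symbol starts with ZNF, ZFP or ZSCAN. There were 261 of them (249 ZNF, 5 ZFP and 7 ZSCAN genes) among 20033 protein-coding genes. R-loops pair a nascent RNA with its template DNA and leave the opposite DNA strand unpaired. They had been profiled with CUT&Tag in the uveal melanoma line OMM2.3. All cells carried a transfected V5-tagged RNASEH1_D210N, a nuclease mutant that binds RNA:DNA hybrids without cutting them, and an antibody to V5 marked the bound DNA. The 2 groups differed in their short hairpin, which was a control (shCtrl) or directed against APOBEC3B (shA3B), and each had 1 library. The only measurement is a list of regions on GRCh38 in which the shA3B and shCtrl libraries were called different. It has 562 lines. A line holds only a position, so neither the direction of a difference nor the read depth is known from it, and there was no replicate check. A gene missing from the list may have carried the same R-loop signal in both libraries or none in either.

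Most chromosome 19 zinc finger genes encode transcriptional repressors that arose by repeated local duplication. Their C2H2 fingers read DNA, often in transposable elements, and a KRAB box at the start of the protein binds the corepressor TRIM28, which brings in the histone methyltransferase SETDB1 and HP1 proteins. R-loops are favoured at promoters rich in CpG dinucleotides and with more G than C on the coding strand downstream of the transcription start site (TSS).

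A gene was marked when the midpoint of a listed region was within 3 kb of any of its TSSs. The zinc finger genes of chromosome 19 were selected on this readout, so their count is given as a description with no test. None of the 261 genes had a region, where 2.19% of all protein-coding genes (438 of 20033) did. A count of 0 in 261 genes allows a share of up to 1.15%, and the 95% Wilson interval reached 1.45%. These intervals cover counting error only. Of the other 1215 protein-coding genes of chromosome 19, 14 had a region (1.15%, Wilson interval 0.688 to 1.92), which overlaps the interval of the zinc finger genes. Of 301 genes of the same symbol classes on 20 other chromosomes, 8 had one (2.66%, interval 1.35 to 5.16). Chromosome 19 as a whole had a share of 0.949% (14 of 1476 genes), and the only chromosome below it was Y with 0 of 63 genes. Genes that lie side by side share regions and are not independent, and neither interval allows for that.

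The upstream sequences below show the promoters at both ends of the chromosome 19 range, beside promoters of zinc finger genes elsewhere that did have a region. ZNF565 (chr19:36215085-36215334, minus strand) was the zinc finger gene of chromosome 19 nearest to a region. ZNF446 (chr19:58476102-58476351, plus strand) was the farthest from one. ZNF213 (chr16:3134779-3135028, plus strand) had its TSS closest to a region midpoint among zinc finger genes elsewhere. ZNF184 (chr6:27473106-27473355, minus strand) was the only one elsewhere with both a region and a KRAB box found by the letter pattern used. Each run is the 250 bases before the RefSeq start on GRCh38.p14, written 5′ to 3′, with CpG dinucleotides in capitals.
ZNF565: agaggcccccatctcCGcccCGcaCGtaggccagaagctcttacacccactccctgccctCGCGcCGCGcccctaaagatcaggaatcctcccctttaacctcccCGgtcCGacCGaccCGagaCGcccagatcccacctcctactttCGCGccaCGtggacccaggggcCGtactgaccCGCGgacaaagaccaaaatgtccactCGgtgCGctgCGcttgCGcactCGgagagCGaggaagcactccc
ZNF446: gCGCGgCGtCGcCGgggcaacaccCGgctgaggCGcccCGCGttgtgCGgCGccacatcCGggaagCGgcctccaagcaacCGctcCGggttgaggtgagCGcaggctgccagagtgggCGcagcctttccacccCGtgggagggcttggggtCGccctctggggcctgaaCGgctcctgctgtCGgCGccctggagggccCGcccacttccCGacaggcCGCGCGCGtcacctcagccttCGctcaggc
ZNF213: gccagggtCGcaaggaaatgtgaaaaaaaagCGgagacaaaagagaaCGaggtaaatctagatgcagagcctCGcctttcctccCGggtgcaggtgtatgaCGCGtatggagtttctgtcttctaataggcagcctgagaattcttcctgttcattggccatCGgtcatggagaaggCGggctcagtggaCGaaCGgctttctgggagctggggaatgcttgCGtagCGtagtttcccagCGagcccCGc
ZNF184: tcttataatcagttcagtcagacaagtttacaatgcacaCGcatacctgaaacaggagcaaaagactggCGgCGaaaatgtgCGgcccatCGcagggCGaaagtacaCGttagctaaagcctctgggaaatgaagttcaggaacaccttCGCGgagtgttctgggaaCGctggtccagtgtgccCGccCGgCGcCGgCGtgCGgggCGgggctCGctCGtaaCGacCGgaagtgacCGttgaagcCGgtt
These windows held 24 CpGs in ZNF565, 29 in ZNF446, 15 in ZNF213 and 23 in ZNF184. ZNF451 and ZNF410, the next zinc finger genes elsewhere by distance to a region, held 28 and 26, so the counts of promoters with and without a region overlapped. The RefSeq start of ZNF565 lies 419 bases from its canonical TSS in GENCODE, and the other starts coincide. Over the 227 zinc finger genes of chromosome 19 found in the RefSeq promoter table, the median was 16 CpGs (quartiles 11 and 21). It was 17 for 940 other chromosome 19 genes, 19 for 245 zinc finger genes elsewhere and 21 for 347 genes with a region.

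The distance to the nearest region describes the same readout gene by gene and is no separate result. Of the 17 regions on the chromosome, which were 1503 bp wide in the median, none overlapped the body of a zinc finger gene. The median distance from a zinc finger gene to the nearest region midpoint was 2.94 Mb (quartiles 1.04 and 8.79 Mb). It was 1.26 Mb for the other genes of chromosome 19 and 1.41 Mb for zinc finger genes elsewhere. No interval is given, since neighbouring genes share their nearest region. Within 100 kb of a region lay 0 of the 261 genes, against 91 of the other chromosome 19 genes (7.49%) and 21 of the zinc finger genes elsewhere (6.98%). Within 500 kb the counts were 10 (3.83%), 346 (28.5%) and 87 (28.9%), and within 1 Mb they were 63 (24.1%), 510 (42.0%) and 121 (40.2%). The plot of distances shows the zinc finger genes starting only where the curves of the other groups have already begun to climb.

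**Figure D1:**
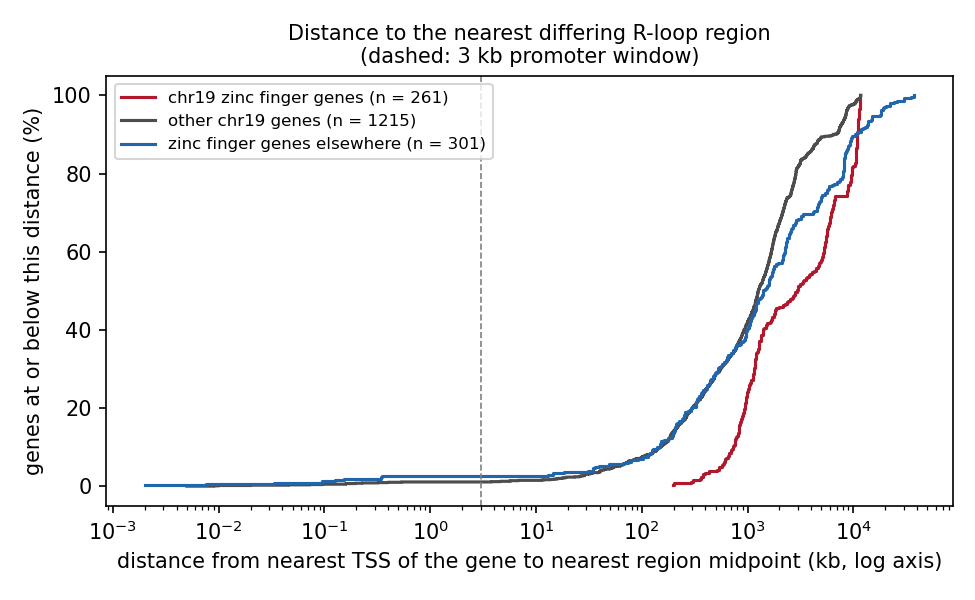
Cumulative share of genes (%) by distance in kb (log axis) from the nearest TSS of a gene to the nearest region midpoint, for the 261 zinc finger genes of chromosome 19, 1215 other genes of chromosome 19 and 301 zinc finger genes elsewhere. The curve for the chromosome 19 zinc finger genes begins at 199 kb, past the dashed 3 kb promoter window, while both other groups have genes inside it.

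No zinc finger gene of chromosome 19 was just inside the 3 kb window, and the nearest ones outside it were far away. ZNF565 (chr19:36182276-36246257), a KRAB gene with 12 C2H2 finger matches in its protein, was 199 kb from the region at ALKBH6, an AlkB family gene. Its overlapping neighbour ZNF146, a protein made almost wholly of fingers and without a KRAB match, was 200.2 kb from the same region. ZFP14, also in this neighbourhood, was 354 kb from it. ZNF653 was 289 kb from the region at KANK2. ZNF575 was 304 kb from a region near a pseudogene, CEACAMP10, of which only 43.5% of 31-base words were unique in the genome. ZNF446, close to the end of the long arm, was 11.7 Mb from the nearest region.

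Along the chromosome, 246 of the 261 genes fell into 10 stretches in which zinc finger genes followed each other at most 500 kb apart, with at least 5 per stretch. The stretches covered 14.2 Mb in all, and no listed region lay inside any of them. Their 96 interspersed genes without a ZNF, ZFP or ZSCAN symbol had no region either (0 of 96, which allows up to 3.13%). Outside the stretches, 14 of 1119 such genes had one (1.25%). Some of the 96 encode C2H2 proteins themselves, such as FIZ1 and ZIK1 with 11 and 9 finger matches. They are therefore not all genes of another kind. The limits of the stretches were set after the positions were seen, and their coordinates below are the first and last canonical TSS. The remaining 15 zinc finger genes were scattered and had no region, at 753 kb (ZNF541) to 3.24 Mb (ZNF473) from one. ZFP36, better known as tristetraprolin, a CCCH-type protein that binds AU-rich mRNA and is no KRAB repressor, was among these at 759 kb.

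**Figure D2:**
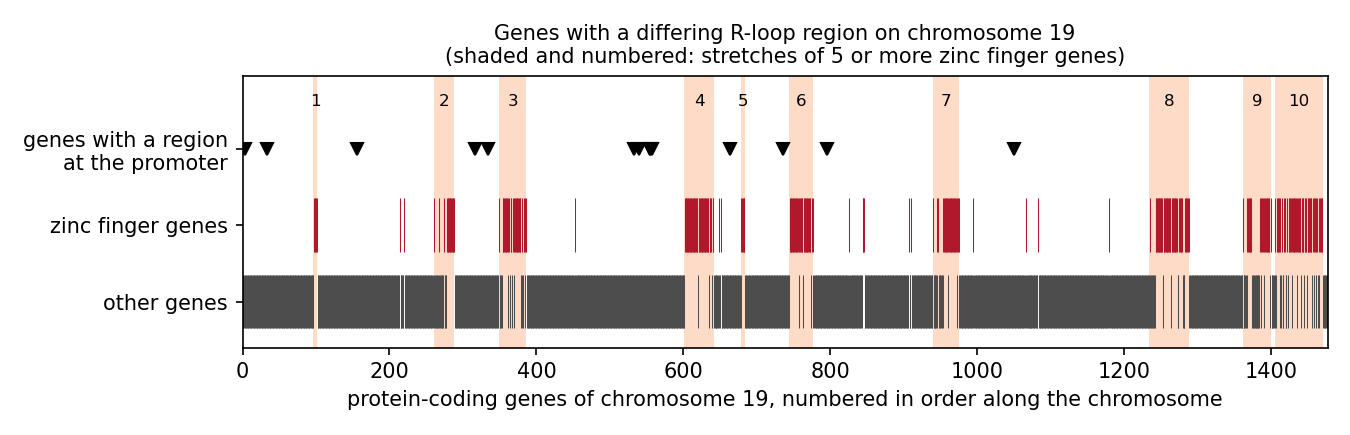
Protein-coding genes of chromosome 19 in their order along the chromosome, with the 261 zinc finger genes, the 1215 other genes and the 14 genes that had a region in separate rows. Shading marks the 10 numbered stretches, none of which holds a gene with a region.

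The stretches differed in size and in distance from the listed regions. The largest by gene number was the last one (chr19:57191500-58476352, ZNF264 to ZNF446) with 47 zinc finger genes, 38 of them with a KRAB match, and its genes were a median of 11.0 Mb from a region. The stretch from ZNF175 to ZNF331 (chr19:51571283-53538145) held 40 genes, 38 with a KRAB match, at a median of 5.80 Mb. The longest, from ZNF101 to ZNF254 (chr19:19668839-24087187, 4.42 Mb), held 37 genes and lay between the regions at GDF15, a stress-induced cytokine gene, and LRP3. Its genes were a median of 3.11 Mb from a region. The stretch from ZNF565 to ZNF573 (chr19:36214665-37779586) held 29 genes at a median of 0.902 Mb, among them ZNF565, the single nearest gene. The stretch from ZNF653 to ZNF791 (chr19:11505839-12610920) held 26 genes at a median of 0.903 Mb, and that from ZNF575 to ZNF180 (chr19:43533188-44500522) held 23 at 0.851 Mb. The 20 genes from ZNF628 to ZNF835 (chr19:55476617-56671757) included only 6 with a KRAB match and were a median of 9.41 Mb away. Smaller stretches ran from ZNF414 to ZNF846 (14 genes, median 1.10 Mb), from ZNF554 to ZNF77 (5 genes, 1.81 Mb) and from ZNF302 to ZNF792 (5 genes, 1.16 Mb).

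Zinc finger genes made up 17.7% of the protein-coding genes of chromosome 19 and were spread unevenly over the intervals between genes with a region. The interval from SLC1A5, which encodes a glutamine transporter, to the end of the chromosome held 426 genes without a region, of which 110 were zinc finger genes (25.8%). Between GDF15 and LRP3 were 106 genes, 39 of them zinc finger genes (36.8%). Between ALKBH6 and ACTN4, which encodes an actin crosslinker, were 58 genes, 29 of them zinc finger genes. Other long intervals held smaller shares, with 30 of 254 genes (11.8%) from ACTN4 to SLC1A5 and 27 of 198 (13.6%) from KANK2 to MAP1S. From DPP9 to KEAP1 they were 16 of 159 (10.1%) and from TMEM259 to DPP9 5 of 122 (4.10%). No zinc finger gene lay between the start of the chromosome and TMEM259, between KEAP1 and KANK2 or between MAP1S and GDF15.

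The 14 genes of chromosome 19 with a region were of other kinds. The closest region midpoints were 5 bp from a TSS of LSM4, a spliceosomal protein gene, 9 bp from MAP1S, 10 bp from DPP9 and 20 bp from ACTN4. Further examples were TMEM259 at 45.5 bp, KEAP1, which encodes the partner that holds NRF2 in check, at 73 bp, CCDC124 at 96 bp and ALKBH6 at 158.5 bp. KANK2 was at 160 bp and LRP3 at 195.5 bp. The DPP9 region also overlapped a tRNA gene. GDF15, JUND, MIER2 and SLC1A5 made up the rest.

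Promoter CpG content, which the choice of genes did not use, was compared next. The CpG observed/expected ratio in the 1 kb around the canonical TSS had a median of 0.708 (95% interval 0.687 to 0.725) in the zinc finger genes of chromosome 19. The other genes of the chromosome had a median of 0.653 (0.633 to 0.676), the zinc finger genes elsewhere 0.755 (0.742 to 0.779) and all genes with a region 0.813 (0.802 to 0.825). The intervals of these groups did not overlap, but they treat genes as independent, and neighbouring zinc finger genes are often duplicates of each other. No difference was therefore read from the intervals. By median, the zinc finger genes of chromosome 19 lay above their chromosomal neighbours and below the zinc finger genes elsewhere. The upper quartile of the chromosome 19 zinc finger genes, 0.768, was below the 0.793 of the other chromosome 19 genes. Ratios of the chromosome 19 zinc finger genes ran from 0.183 in ZSCAN5C to 1.00 in ZNF584. With the ratio cut into tertiles over all genes, 53 zinc finger genes of chromosome 19 (20.3%) were in the lowest. The middle held 161 of them (61.7%) and the highest 47 (18.0%). Of the other chromosome 19 genes, 43.3% were in the lowest, 32.9% in the middle and 23.8% in the highest.

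The share of genes with a region was higher in the upper tertiles of this ratio in the genome, while in the chromosome 19 zinc finger genes each tertile was at 0, as their total was. Outside chromosome 19, 0.574% of genes in the lowest tertile, 2.53% in the middle and 3.69% in the highest had a region. The other genes of chromosome 19 gave 0.380% (2 of 526), 1.00% (4 of 400) and 2.77% (8 of 289). Zinc finger genes elsewhere gave 1 of 49, 4 of 133 (3.01%) and 3 of 119 (2.52%). For the zinc finger genes of chromosome 19 a count of 0 allows up to 5.66%, 1.86% and 6.38%. As these genes were selected on the same readout, no difference between groups was read from the tertiles.

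**Figure D3:**
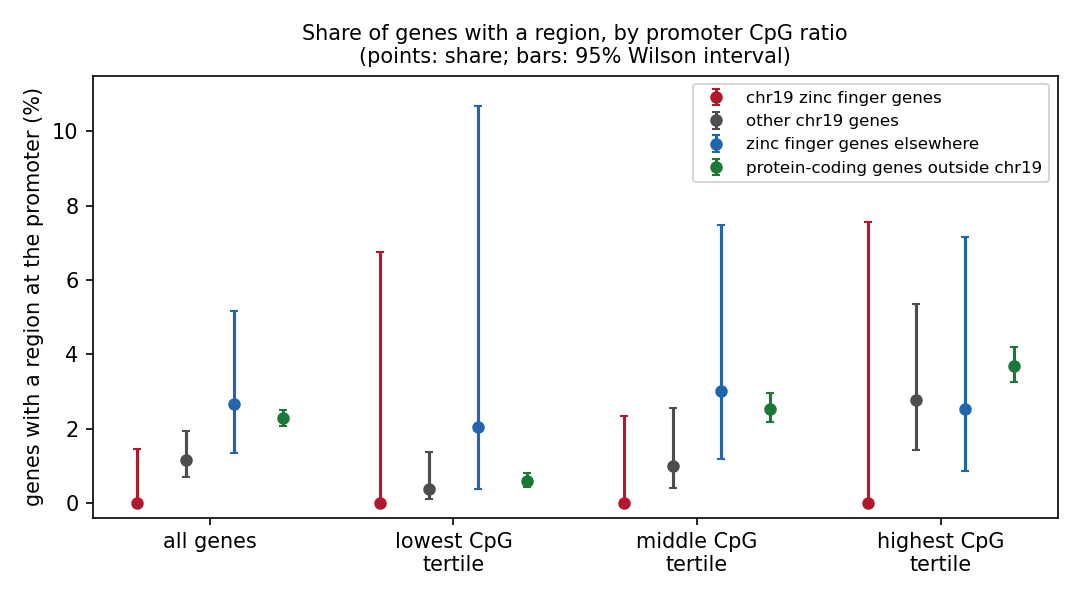
Share of genes (%) with a region at the promoter for 4 gene groups, over all genes and within tertiles of promoter CpG ratio; points are shares and bars are 95% Wilson intervals. The zinc finger genes of chromosome 19 stand at 0 in every tertile, which follows from their total of 0.

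GC content and GC skew were examined as further features of R-loop-prone promoters. The median GC content over the same 1 kb was 58.5% (interval 57.7 to 59.1) in the zinc finger genes of chromosome 19, below the 62.0% of the other chromosome 19 genes, the 61.2% of zinc finger genes elsewhere and the 63.2% of genes with a region. GC skew was taken as the excess of G over C, divided by their sum, in the 500 bp after the canonical TSS, and had a median of 0.0596 (0.0506 to 0.0736). It was 0.0722 in the other chromosome 19 genes, 0.0775 in zinc finger genes elsewhere and 0.0595 in the genes with a region. The first and last of these medians were nearly equal, so median skew did not separate the zinc finger genes of chromosome 19 from genes with a region. Quartiles were 0 and 0.169 in the former and -0.0236 and 0.142 in the latter. Single zinc finger genes of chromosome 19 ran from -0.317 in ZNF541 to 0.602 in ZNF444, so the median hides a wide spread. The number of annotated TSSs, each of which gave a gene another chance of being marked, had a median of 5 in all 3 groups and 7 in genes with a region.

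Because the authors dropped reads of low mapping quality and these genes arose by duplication, the uniqueness of each promoter was also measured. It was taken as the share of 31-base words in the 1 kb around the TSS that occur once in the assembly without alternate contigs. The authors' reads were paired and longer than these words, so this share does not measure how many reads could be placed. The median was 98.8% in the zinc finger genes of chromosome 19, with a lower quartile of 91.5% and a minimum of 53.5% in ZNF773. It was 99.8% in the other chromosome 19 genes and 100% in zinc finger genes elsewhere. No zinc finger gene of chromosome 19 fell under 50%, while 35 of the other chromosome 19 genes and 12 zinc finger genes elsewhere did. A share of 90% was reached by 202 of the 261, 957 of 1215 other chromosome 19 genes and 255 of 301 zinc finger genes elsewhere. With the alternate contigs counted as well, 6 zinc finger genes of chromosome 19, 82 other chromosome 19 genes and 19 zinc finger genes elsewhere fell under 50%. Whether the authors aligned to these contigs is not given in the sources used here. ZNF451, with 56.9% unique words at its promoter, was among the genes elsewhere that had a region. Whether read filtering played a part in the count was not tested.

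The stretch from ZNF101 to ZNF254 stood apart on both measures. Its median CpG ratio was 0.531 and 29 of its 37 genes were in the lowest tertile, out of the 53 such genes on the chromosome. Its median unique share was 85.7%, the lowest of the stretches. Here lie ZNF208, ZNF729 and ZNF91, the genes with the most finger matches on the chromosome (36, 39 and 32), and ZNF91 is known as a repressor of SVA retrotransposons. Their CpG ratios were 0.511, 0.569 and 0.511. The stretch from ZNF565 to ZNF573 had by contrast a median CpG ratio of 0.762 and a median unique share of 100%. Highest was the small stretch from ZNF302 to ZNF792, at a ratio of 0.891.

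**Figure D4:**
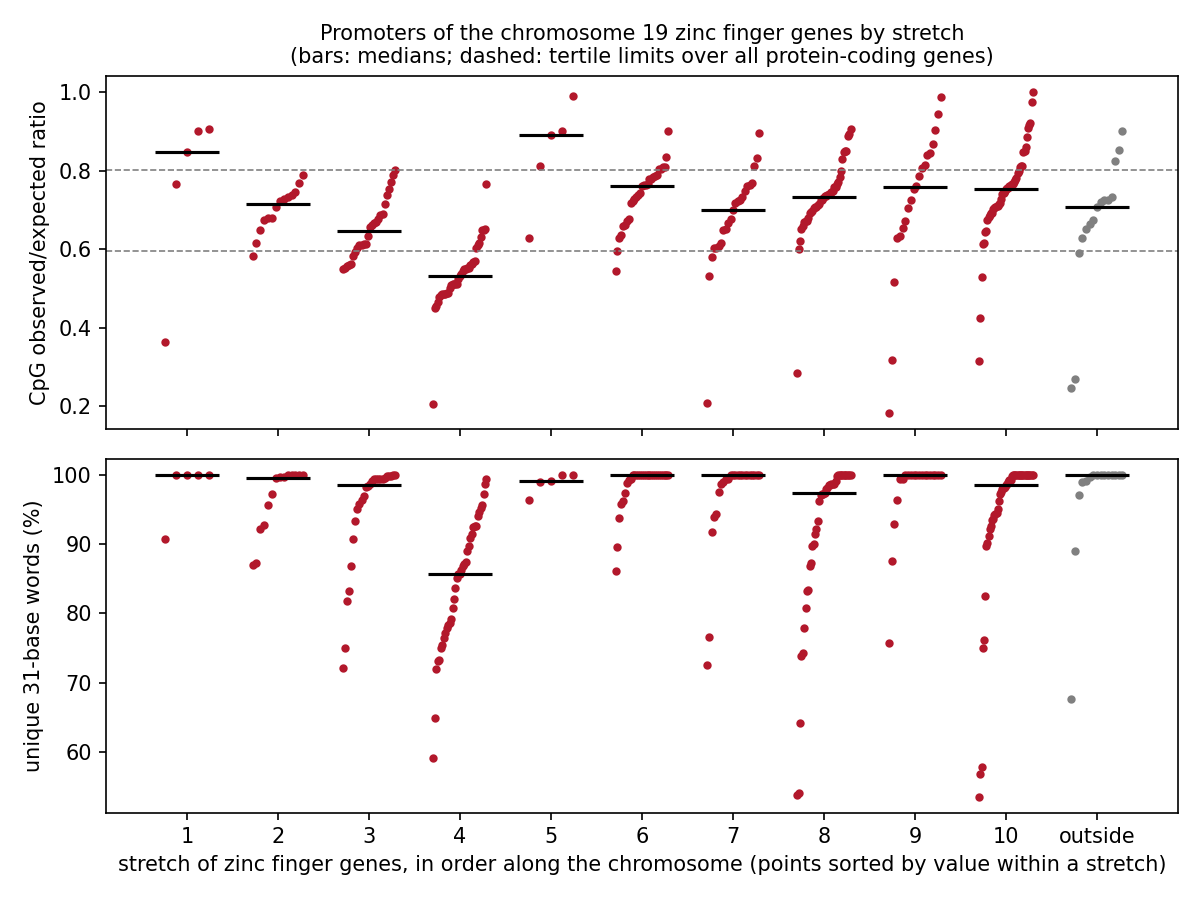
CpG observed/expected ratio (top) and share of unique 31-base words in % (bottom) in the 1 kb around the canonical TSS of each of the 261 zinc finger genes of chromosome 19, by stretch; bars are medians and dashed lines the tertile limits over all protein-coding genes. Stretch 4 (ZNF101 to ZNF254) has the lowest medians on both, 0.531 and 85.7%.

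By protein type, 199 of the 261 genes had a KRAB match in the canonical protein and 62 did not, and neither class had a region. On other chromosomes, 1 of 116 genes with a KRAB match (0.862%, interval 0.152 to 4.72) and 7 of 185 without one (3.78%, interval 1.84 to 7.60) had a region, and these intervals overlap. The KRAB pattern can miss diverged boxes. Of the chromosome 19 genes, 256 had at least 3 C2H2 matches, with a median of 12 per protein against 8 elsewhere. The exceptions were ZFP36, ZNF428, ZSCAN18 and the readthrough genes ZNF625-ZNF20 and ZNF816-ZNF321P. The other chromosome 19 genes included 25 with at least 3 C2H2 matches under other names or none, among them the erythroid factor KLF1, KLF2 and the imprinted gene PEG3. None of these 25 had a region, which allows a share of up to 12% and is too few genes to set beside the 1.15% of all other chromosome 19 genes. The nearest was OVOL3 at 96.7 kb.

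Of the 8 zinc finger genes elsewhere with a region, 7 had no match to the KRAB pattern, which does not show that they lack a KRAB box. ZNF213 had a region centred 2 bp from a TSS (chr16:3134623-3135649), and ZNF451, a SUMO ligase, one at 7.5 bp (chr6:57089779-57090358). ZNF410, an activator of CHD4, was at 33.5 bp (chr14:73886365-73887170) and ZNF16 at 94.5 bp. ZNF184, at 125.5 bp (chr6:27472145-27473468), had 20 finger matches and was the only one with a KRAB match. ZFP36L1, at 154 bp (chr14:68795371-68796483), is an mRNA-binding relative of ZFP36 on chromosome 19, which had none. ZNF697 was at 341.5 bp from a region that it shared with PHGDH, which encodes an enzyme of serine synthesis. ZSCAN10, a factor of pluripotent cells, was at 348.5 bp (chr16:3098853-3100434) in spite of a CpG ratio of only 0.274. None of these regions overlapped a tRNA gene, and the closest to one was the region at ZNF184, at 5.34 kb.

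Short motifs in the 300-base RefSeq promoters (250 bases before to 50 after the start) were searched on both strands as a description of what the genes share. The ETS motif CCGGAAGT was in 19.8% of the chromosome 19 zinc finger promoters (45 of 227), in 4.57% of other chromosome 19 promoters, in 14.7% of zinc finger promoters elsewhere and in 6.31% of all promoters. CCAAT was in 53.3% (121 of 227), against 37.6%, 42.4% and 36.6% in the same order. TATAAA was rare, in 2.20% against 7.98%, 3.67% and 9.62%, as was the E box CACGTG, in 4.41% against 8.83%, 5.71% and 8.88%. GGGCGG, bound by Sp and KLF factors, was in 67.0% against 66.7%, 61.2% and 59.2%, and TGACGTCA in 3.08% against 3.51%, 4.08% and 2.64%. Genes with a region held the ETS motif in 6.92% of 347 promoters, close to the share in all promoters. They held CCAAT in 44.7% and GGGCGG in 70.0%, both above the shares in all promoters. TATAAA was in 9.22% of them, CACGTG in 9.80% and TGACGTCA in 3.17%.

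**Figure D5:**
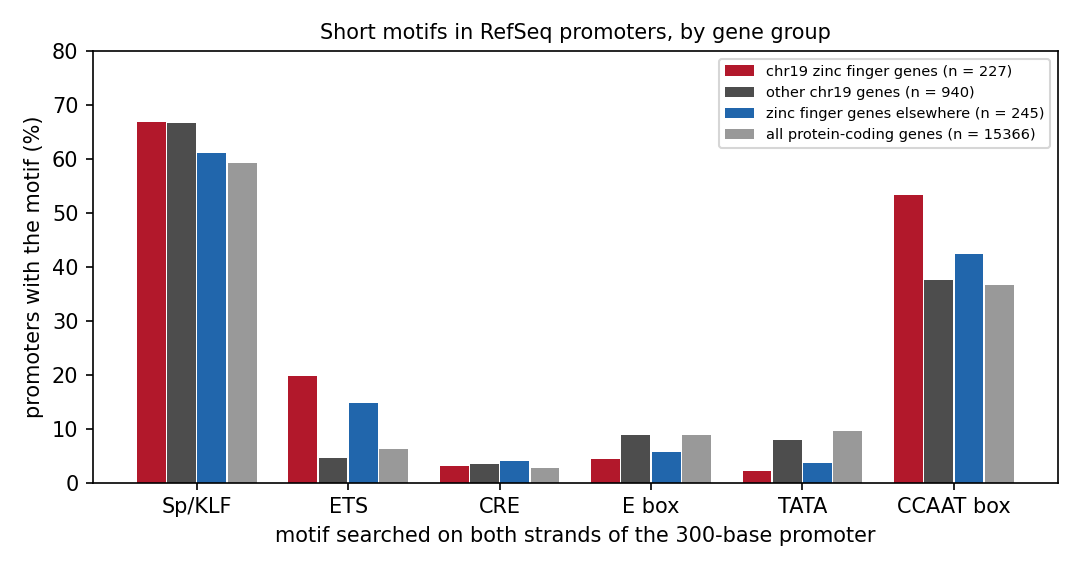
Share of 300-base RefSeq promoters (%) that hold each of 6 short motifs on either strand, in 227 zinc finger genes of chromosome 19, 940 other genes of chromosome 19, 245 zinc finger genes elsewhere and all 15366 protein-coding genes in the table. The ETS bars are tall in both zinc finger groups (19.8% and 14.7%) and the TATA bars low (2.20% and 3.67%).

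The motifs were spread unevenly over the stretches. In the last one, from ZNF264 to ZNF446, 23 of 44 promoters (52.3%) held the ETS motif, while none of 29 did in the stretch from ZNF101 to ZNF254. The commonest run of 12 bases around this motif in the last stretch was CGGGACTTCCGG, which holds the reverse complement of the motif. It was in 10 of those 44 promoters and in 33 of all 15366 (0.215%). The first 6 genes of the last stretch with the ETS motif upstream of the RefSeq start are shown on the coding strand, with the motif in capitals and up to 16 bases on each side.
ZNF264: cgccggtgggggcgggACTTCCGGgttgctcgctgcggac
ZNF805: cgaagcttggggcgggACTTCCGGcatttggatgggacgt
ZNF460: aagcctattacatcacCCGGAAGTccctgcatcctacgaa
ZNF547: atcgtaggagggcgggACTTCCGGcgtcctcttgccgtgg
ZNF419: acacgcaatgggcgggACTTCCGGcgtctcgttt
ZNF773: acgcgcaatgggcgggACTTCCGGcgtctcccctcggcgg
Their coordinates on GRCh38.p14 are chr19:57191457-57191496 for ZNF264, chr19:57240578-57240617 for ZNF805, chr19:57279902-57279941 for ZNF460, chr19:57363407-57363446 for ZNF547, chr19:57487716-57487749 for ZNF419 and chr19:57499852-57499891 for ZNF773. All 6 are on the plus strand, and the motif read CCGGAAGT in ZNF460 and its reverse complement in the other 5. Over the 31 genes of all stretches with a match upstream of the start, the median gap between motif and start was 23 bases. Neighbouring zinc finger genes are often duplicates of each other, so a run shared by their promoters is not an independent observation in each.

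CCAAT was in all 29 promoters of the table in the stretch from ZNF101 to ZNF254, in all 5 from ZNF554 to ZNF77 and in 23 of 25 (92.0%) from ZNF653 to ZNF791. The last stretch, which supplied 23 of the 45 promoters with the ETS motif, had CCAAT in 30 of its 44 promoters (68.2%). In the stretch from ZNF101 to ZNF254, the most shared run of 10 bases around CCAAT was TCCAATCAGG. This run was in 26 of the 29 promoters there (89.7%) and in 0.508% of all promoters. It is shown with CCAAT in capitals for the first 4 genes of the stretch that are in the promoter table and for ZNF208 and ZNF91, which have many fingers.
ZNF101: gcggcaaactgtCCAATcaggtgcgccgg
ZNF14: cattggatctgtCCAATcaggacctcagc
ZNF93: ggctggaaacgtCCAATcaggcaagcagc
ZNF682: agtgggaactgtCCAATcaggtgcgcagc
ZNF208: ggctgggaacgtCCAATcaggcaggcagc
ZNF91: gctgggaactgtCCAATcaggcacaaagc
Their coordinates on GRCh38.p14 are chr19:19668757-19668785 for ZNF101, chr19:19733149-19733177 for ZNF14, chr19:19900878-19900906 for ZNF93, chr19:20039541-20039569 for ZNF682, chr19:22010980-22011008 for ZNF208 and chr19:23395513-23395541 for ZNF91. ZNF101 and ZNF93 are on the plus strand and the others on the minus strand. The CCAAT nearest to the start was 10 to 65 bases upstream of it in the 29 promoters, with a median of 48, and in the forward orientation in all but ZNF681.

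The partners of KRAB proteins were followed as a list of 19 corepressor genes, chosen with earlier results of these data known. Of these, 2 had a region (10.5%, Wilson interval 2.94 to 31.4), where 2.19% of all protein-coding genes did. With 19 genes this interval is wide, and no difference was read from the shares. CHD3 had 22 annotated TSSs and HDAC1 10, against a median of 5 over all protein-coding genes, and each TSS gave another chance of being marked. The distances were 379.5 bp for CHD3, a NuRD remodeller, and 513 bp for HDAC1, a histone deacetylase. The other 17 had none. TRIM28 itself, on chromosome 19 beyond the last stretch, was 11.8 Mb from a region. UHRF1 and DNMT1, maintenance factors of DNA methylation on the same chromosome, were at 179 kb and 271 kb. SETDB1, which TRIM28 recruits, was at 1.11 Mb.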

How the data were processed

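R-loop CUT&Tag was run in 1 shCtrl and 1 shA3B library of OMM2.3 cells, and groups were taken from the sample titles. Per the labels and the published methods, adapter trimming by the authors used cutadapt 4.1, and they aligned read pairs to GRCh38 with Bowtie2 2.2.5, removed duplicates with Picard 2.27.3, filtered reads on mapping quality with SAMtools 1.15.1, called peaks with SEACR 1.3 and compared them with edgeR. The normalization, dispersion and threshold of that comparison are not given in the sources used here. The deposited file holds region coordinates (chromosome, start, end) and no score, signal, count or direction, so read depth is unknown and its precision could not be stated.

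Genes and TSSs came from GENCODE release 44. A gene had a region when a midpoint was within 3 kb of any of its TSSs. Shares carry 95% Wilson intervals, medians carry intervals from the binomial distribution of ranks, and a count of 0 was set against a limit of 3 counts. All these intervals treat genes as independent, which neighbouring duplicates are not. No p-value was computed. C2H2 and KRAB matches are letter patterns in proteins translated from the canonical transcripts. Uniqueness used 31-base words on the assembly without alternate contigs. Promoter sequences came from the RefSeq table on GRCh38.p14, in which 227 of the 261 genes were found. tRNA genes (443) came from RefSeq. The functions were tested on simulated data.

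The zinc finger genes and all lists were chosen with earlier results of these data known. Genes were named by a rule: those with a region, the 5 nearest to one, the farthest, up to 10 with a region in each comparison group by smallest distance, and corepressor genes with a region. Other genes named (those with extreme sequence values, ends of stretches, exceptions, motif examples and corepressors without a region) were chosen after their values were seen. The stretches, the 100 kb window and the wider gene set were also added after seeing the data. Alternatives were other windows, any base of a region, the canonical TSS, unique promoters, regions without tRNA genes and narrower gene sets. The tools were numba 0.67.0, matplotlib 3.10.9, scipy 1.17.1, pandas 2.3.3 and numpy 2.4.6 under Python 3.11.15.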

Additional observations from a re-analysis of the deposited data

How the results depend on the processing

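The share of chromosome 19 zinc finger genes with a region was 0% in all 10 alternatives, but 6 of them could give nothing else once it was 0 at 3 kb: the 1 kb window, the canonical TSS only, promoters with at least 50% unique words (which removed no gene), regions at tRNA genes left out, ZNF symbols only and at least 3 C2H2 matches. Those that could have raised it were the 10 kb window, any base of a region and, chosen after seeing the data, a 100 kb window and the addition of other C2H2 genes of the chromosome. The other chromosome 19 genes ranged from 1.07% to 1.56% and the zinc finger genes elsewhere from 2.25% to 2.77%. The median distance stayed between 2.94 and 2.99 Mb, and the corepressor share did not move. Counting those that could not move, 33 of 36 alternatives left their result unchanged or within its interval. Among them, 4 concerned the count of regions at these promoters, which has no interval and was again 0. The median CpG ratio fell to 0.594 in a 2 kb window and to 0.661 in the 500 bases before the TSS. The order of the groups by CpG ratio was the same in these windows. The other chromosome 19 genes had 0.556 and 0.618 and the zinc finger genes elsewhere 0.671 and 0.748. The median unique share fell to 90.4% in a 2 kb window, where the other chromosome 19 genes had 92.4% and zinc finger genes elsewhere 97.7%. Read depth is not known from the list, so whether shallow coverage limited the calls at these promoters was not tested. No paired analysis was possible because shCtrl and shA3B had 1 library each.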

Other observations

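The ETS motif CCGGAAGT was commoner in chromosome 19 zinc finger promoters than in all promoters at each level of CpG content. It was in 5 of 43 promoters (11.6%) of the lowest CpG tertile against 1.34% of all promoters there, in 28 of 143 (19.6%) of the middle tertile against 9.64%, and in 12 of 41 (29.3%) of the highest against 7.45%. In zinc finger genes elsewhere the shares were 5.41%, 16.2% and 16.5%. The last stretch, from ZNF264 to ZNF446, supplied 23 of the 45 promoters with the motif, and without it the motif was in 22 of 183 (12%). Among the zinc finger genes of chromosome 19, it was in 38 of 172 promoters (22.1%) of genes with a KRAB match and in 7 of 55 (12.7%) of the others. In the last stretch 38 of 47 genes had a KRAB match, so this split was not separated from that stretch. Neighbouring duplicates are counted here as separate promoters. The motif was one of 6 searched, and no test was made.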
